A study of Homo sapiens with 12 samples.

Results

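The proteasome genes were read in 2 human prostate cancer cell lines after knockdown of the forkhead transcription factor FOXA1. Members were all protein-coding genes whose symbol begins with PSMA, PSMB, PSMC, PSMD, PSME, PSMF or PSMG and a number. This gave 49 of the 60106 genes in each table, out of 20298 protein-coding genes. One of the 49, PSMC3IP, matches by name only: it encodes a recombination cofactor named for its contact with PSMC3. PC3 cells come from a bone metastasis. VCaP cells come from a vertebral metastasis and carry the TMPRSS2-ERG rearrangement. Each line received either NSI, a non-targeting siRNA, or siFOXA1, an siRNA against FOXA1, by lipid transfection, and RNA was taken after 72 hours. There were 3 libraries in each of the 4 groups, 12 in all. PC3 was given 20 nM siRNA in RPMI medium with foetal calf serum and sequenced from polyA RNA, with strand ignored in the counting. VCaP was given 40 nM in DMEM, also with foetal calf serum, and sequenced from total RNA, with strand used. The line can therefore not be told apart from the dose, the medium, the library kit and the counting. The knockdown is transient, its siRNA sequences are not given in the sources used here, and all samples of a line derive from 1 established cell line.

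The proteasome degrades proteins that carry ubiquitin chains. Its 20S core is a barrel of alpha rings around beta rings, and 3 beta subunits of each ring cut the substrate: PSMB5 after hydrophobic residues, PSMB6 after acidic ones and PSMB7 after basic ones. The 19S cap recognises, unfolds and feeds the substrate through PSMC ATPases and PSMD subunits. Interferon-gamma is known to induce PSMB8, PSMB9 and PSMB10, which replace PSMB5, PSMB6 and PSMB7 in newly built cores to give the immunoproteasome, and PSME1 and PSME2, which form the PA28 alpha-beta cap. These 5 genes are called the inducible genes here. They shape the peptides that TAP1 and TAP2 carry to class I molecules.

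The genes that moved together in PC3 are shown first by the sequence before their transcript starts, because 2 families of interferon-responsive motifs are known for this group. The sequences are RefSeq's for GRCh38.p14, 5′ to 3′ on the gene's strand, and 43 of the 49 member names matched an entry (PSMA7, PSMB1, PSMB6, PSMB7, PSMD4 and PSMG3 had none). Windows of 250 bases before each start were searched on both strands. The letters were GAAA, any 2 bases and GAAA again, the core of the interferon-stimulated response element (ISRE), and TTCNNNGAA, the gamma-activated site (GAS) known from interferon-gamma signalling. Capitals mark a match to either motif. PSMB10 is shown from chr16:67936851-67937100 on the minus strand, with an ISRE core 21 to 12 bases before the start. PSME2 is shown from chr14:24146619-24146648 on the minus strand, with an ISRE core 28 to 19 bases before the start. PSMB8 is shown from chr6:32844093-32844122 on the minus strand, with a GAS 65 to 57 bases before the second of its 2 starts. PSMB9 is shown from chr6:32853942-32854191 on the plus strand, with neither motif. TAP1, which is no proteasome gene but faces PSMB9 with 487 bases between the nearer starts, is shown from chr6:32853817-32853954 on the minus strand. It has 2 ISRE cores that share 4 bases, together 134 to 119 bases before its start.
PSMB10: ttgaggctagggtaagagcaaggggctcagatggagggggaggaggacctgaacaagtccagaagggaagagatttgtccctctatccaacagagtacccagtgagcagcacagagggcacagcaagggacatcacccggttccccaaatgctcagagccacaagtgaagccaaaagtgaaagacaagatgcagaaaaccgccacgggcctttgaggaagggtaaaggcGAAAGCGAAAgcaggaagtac
PSME2: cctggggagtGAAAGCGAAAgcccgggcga
PSMB8: aactgtccttTTCTCGGAAaaggcaggggg
PSMB9: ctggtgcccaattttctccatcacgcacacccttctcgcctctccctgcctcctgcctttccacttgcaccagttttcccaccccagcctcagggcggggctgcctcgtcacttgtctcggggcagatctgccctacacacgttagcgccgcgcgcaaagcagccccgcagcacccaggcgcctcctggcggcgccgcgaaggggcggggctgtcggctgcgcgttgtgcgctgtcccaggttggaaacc
TAP1: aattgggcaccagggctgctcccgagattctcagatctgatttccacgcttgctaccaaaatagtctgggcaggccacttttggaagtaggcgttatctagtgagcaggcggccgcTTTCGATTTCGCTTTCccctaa

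The same ISRE letters occurred in 3.02% of the 35116 windows in the table and in 5 of the 53 members' windows, those of PSMA4, PSMB4, PSMB10, PSME2 and PSMG4. A GAS occurred in 6.57% of all windows and in 7 of the 53, in PSMA2, PSMA8, PSMB5, PSMB8, PSMC4, PSMD3 and PSME3. No ISRE core overlapped a GAS in these genes. PSME1 and PSMB9 held neither, which says only that these letters are not in these windows. For comparison, TGACNNNGC, the core of the antioxidant response element through which NFE2L1 is known to act on proteasome genes, was in 10.9% of all windows and in 13 of the 53. The forkhead letters TGTTTAC were in 2.98% of all windows and in 2 of the 53, in PSMB2 and PSMD5. These matches are descriptions of letters and were not tested for binding.

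Each PC3 library held between 123140099 and 188226483 counts, and each VCaP library between 48187047 and 59839211. The members' part of a library was 0.388 to 0.502% for PC3 and 0.25 to 0.305% for VCaP. FOXA1 itself read 303, 244 and 266 CPM (counts scaled to a common library size with TMM factors) in PC3 NSI and 163, 182 and 162 in PC3 siFOXA1, and its level fell to 62.4% of the control. In VCaP it read 458, 468 and 544 CPM against 85.2, 73.6 and 83.1, and fell to 16.5%. The log2 fold change was -0.68 in PC3 (edgeR adjusted p = 0.00222) and -2.6 in VCaP (edgeR adjusted p = 1.84e-07). Most line markers went with the labels: KLK3, KLK2 and ERG were at or under 0.0715 CPM in PC3, and CAV1, VIM and AXL were under 1 CPM in VCaP. HOXB13, from the VCaP list, was high in both lines, at 360.1 ± 7.73 CPM in PC3 NSI and 253 ± 21.3 in VCaP NSI. CD44, from the PC3 list, was present in VCaP and rose there from 5.37 ± 0.736 to 23.9 ± 0.777 CPM (log2 fold change 2.15, edgeR adjusted p = 5.18e-07). VIM also rose in VCaP (1.41, edgeR adjusted p = 0.00875). In these bulk libraries more cells of a type and more RNA per cell cannot be told apart. Of the 8 blood cell markers, PTPRC, CD3E, MS4A1 and HBB were at or under 0.238 CPM in all libraries, and HBB was at 0 in all 12. CD14, a monocyte marker, rose in VCaP from 0.698 ± 0.0724 to 2.72 ± 0.431 CPM (log2 fold change 1.97, edgeR adjusted p = 2.07e-05), and its part in the VCaP results was not tested. CD68, the other of the 2 tested in VCaP, was not called (0.235 against 0.249 CPM). Below the filter there, PTPRC went from 0.113 to 0.0196 CPM and LYZ from 0.245 to 0.132. MS4A1 went the other way, from 0.00579 to 0.157 CPM.

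In control cells the standard catalytic subunits were far above their inducible counterparts. On the per-length scale, in TPM (counts per base of exon, scaled to a common total), PC3 NSI libraries held PSMB7 at 343 ± 48.3 (SD, n = 3), PSMB6 at 194 ± 31.8 and PSMB5 at 182 ± 25.2. The inducible counterparts stood at 9.84 ± 2.66 for PSMB10, 12.6 ± 3.67 for PSMB9 and 18.4 ± 3.14 for PSMB8, and the first 2 do not differ beyond their spread. PA28 was different: PSME1, at 207 ± 28.8 TPM, lay in the range of PSMB5, PSMB6 and PSMB7. PSME2, at 137 ± 21, lay below these but far above the inducible catalytic subunits. In VCaP NSI, PSMB7 was at 80.2 ± 5.16 TPM, PSMB5 at 32.6 ± 0.966 and PSMB6 at 27.6 ± 1.71. There PSME1 was at 11.3 ± 0.829, PSME2 at 19.9 ± 1.36, PSMB8 at 4.66 ± 0.242, PSMB10 at 2.43 ± 0.286 and PSMB9 at 1.57 ± 0.452 TPM. The 20S chaperone PSMG4 had the lowest mean of the tested members in PC3 (6.89 ± 1.04) and in VCaP (1.42 ± 0.124), where it did not differ from PSMB9 beyond their spread.

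**Figure D1:**
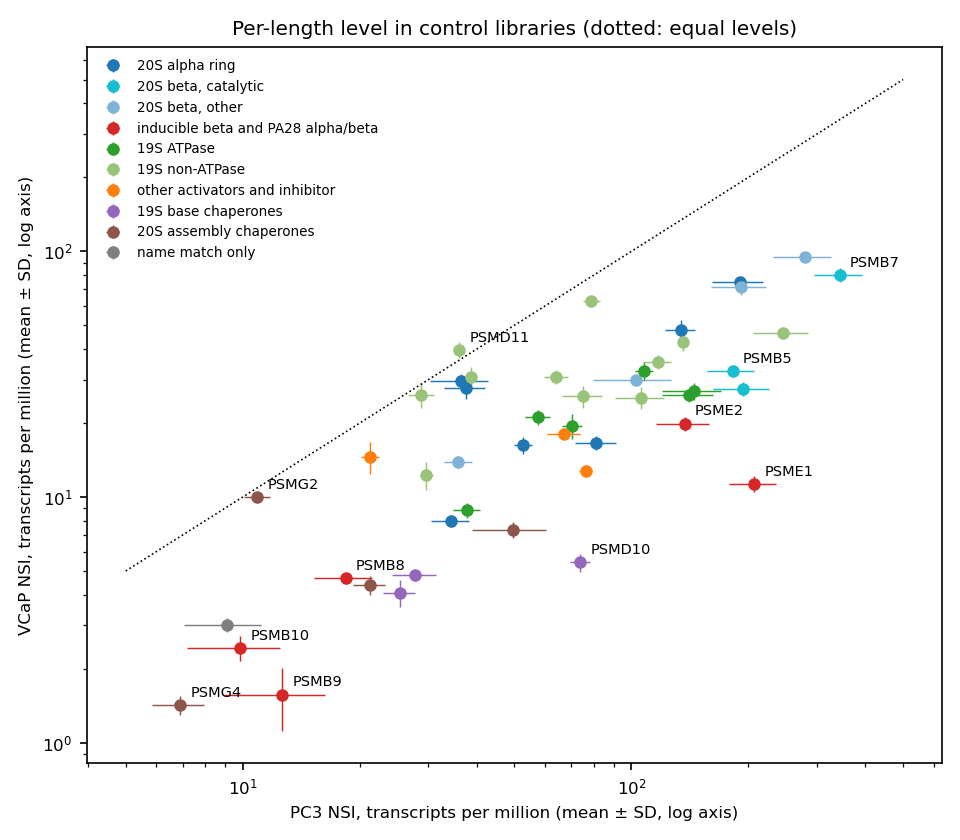
Mean level per length of each tested member in the NSI libraries, PC3 on the horizontal and VCaP on the vertical axis, both in TPM on log axes. Bars are the SD of 3 libraries, colours are roles and the dotted line marks equal levels. PSME1 and PSMD10 sit farthest below the line, and PSMD11 is the 1 member above it.

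The order of the members was broadly shared by the lines, with a Spearman rho of 0.74 over the 47 tested genes, given as a description of genes that share libraries and lengths. The VCaP level was a median 27.7% of the PC3 level, in which line and library kit cannot be told apart. Against that median, PSME1 stood at 5.46%, the lowest of the 47, and PSMD10, a chaperone of the 19S base also known as gankyrin, at 7.33%. PSMB9 followed at 12.5%, the standard subunit PSMB6 at 14.2% and PSME2 at 14.5%, whereas PSMB8 at 25.3% and PSMB10 at 24.7% were near the median. At the other end PSMG2, a 20S assembly chaperone, was at 91.7% and PSMD11, a 19S lid subunit, at 110%. PSMA8, the testis-type alpha subunit, had at most 1 count in any library. PSMB11, the thymus-type catalytic subunit, had 1 to 13 counts in PC3 and at most 1 in VCaP. Both were below the filter on low counts, so 47 of the 49 were tested.

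In PC3 all 5 inducible genes rose with siFOXA1. PSMB9 rose most, then PSMB8, PSMB10, PSME2 and PSME1. None of the 31 tested standard 20S and 19S subunits passed the threshold, an adjusted p under 0.05. With the replicate number as a block, 2 of the 31 rose and 7 fell, all by small amounts. The block called 42.9% of all genes. PSME3, which forms the PA28 gamma cap of the nucleus, fell. Without the block, 5 of the 47 members rose and 3 fell in all. The background there was 27.8% of the 26376 genes called, 13.9% higher and 13.9% lower. The CPM of the 2 groups did not overlap for 18 of the 47 members. The share of all genes without overlap was not counted.

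PSMB8, the counterpart of PSMB5, lies on chromosome 6 from 32808494 to 32812480 (GRCh37, minus strand) between TAP2 and TAP1. It read 13.4, 18.9 and 16 CPM in the PC3 NSI libraries and 59.6, 66.7 and 56.4 in the siFOXA1 libraries. The groups were far apart, and the log2 fold change was 1.92 (SE 0.13, edgeR adjusted p = 3.47e-05). PSMB9, the counterpart of PSMB6, spans 32811913 to 32827362 of the same chromosome on the plus strand, so that both PSMB8 and TAP1 overlap its span. Its CPM was 4.49, 8.14 and 7.06 in NSI and 39.8, 54.7 and 36.5 in siFOXA1. Its groups were the farthest apart of the family, and its log2 fold change was 2.73 (SE 0.24, edgeR adjusted p = 0.000105), to 665% of the control mean.

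PSMB10, the counterpart of PSMB7, lies on chromosome 16 from 67968405 to 67970990 on the minus strand. It read 5.23, 8.86 and 6.27 CPM in NSI and 16.7, 19.7 and 15.1 in siFOXA1, for a log2 fold change of 1.34 (SE 0.19, edgeR adjusted p = 0.00163). With siFOXA1 it was the least abundant of the 3 catalytic inducible subunits per length, at 27.4 ± 3.3 TPM against 91.9 ± 18.6 for PSMB9 and 76.4 ± 5.36 for PSMB8. PSME1 and PSME2 lie close together on chromosome 14, at 24605367 to 24608176 and 24612574 to 24616430, on opposite strands. PSME1 read 124, 163 and 141 CPM in NSI and 299.8, 355 and 275 in siFOXA1. PSME2 read 100.3, 135 and 111 CPM in NSI and 236, 298 and 229 in siFOXA1. Neither gene's groups overlapped, and the pair moved alike: PSME1 by 1.12 (SE 0.13, edgeR adjusted p = 0.000603) and PSME2 by 1.14 (SE 0.14, edgeR adjusted p = 0.000791) on the log2 scale. With siFOXA1, PSME1 at 493 ± 57.1 TPM was the most abundant of all 49 members. The 5 inducible genes kept their calls in all 17 alternative settings. Blood cells make these genes constitutively, and the 8 blood cell markers summed to 25.1 to 29.2 TPM in PC3 NSI and 46.8 to 52.5 in siFOXA1, nearly all of it CD68, a lysosomal gene (26.7 and 47.7 TPM). The other 7 were each under 1 CPM in PC3. Of the 8, the 4 that were tested there, PTPRC, CD14, CD68 and LYZ, rose, PTPRC from at most 0.0542 to at most 0.119 CPM.

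**Figure D2:**
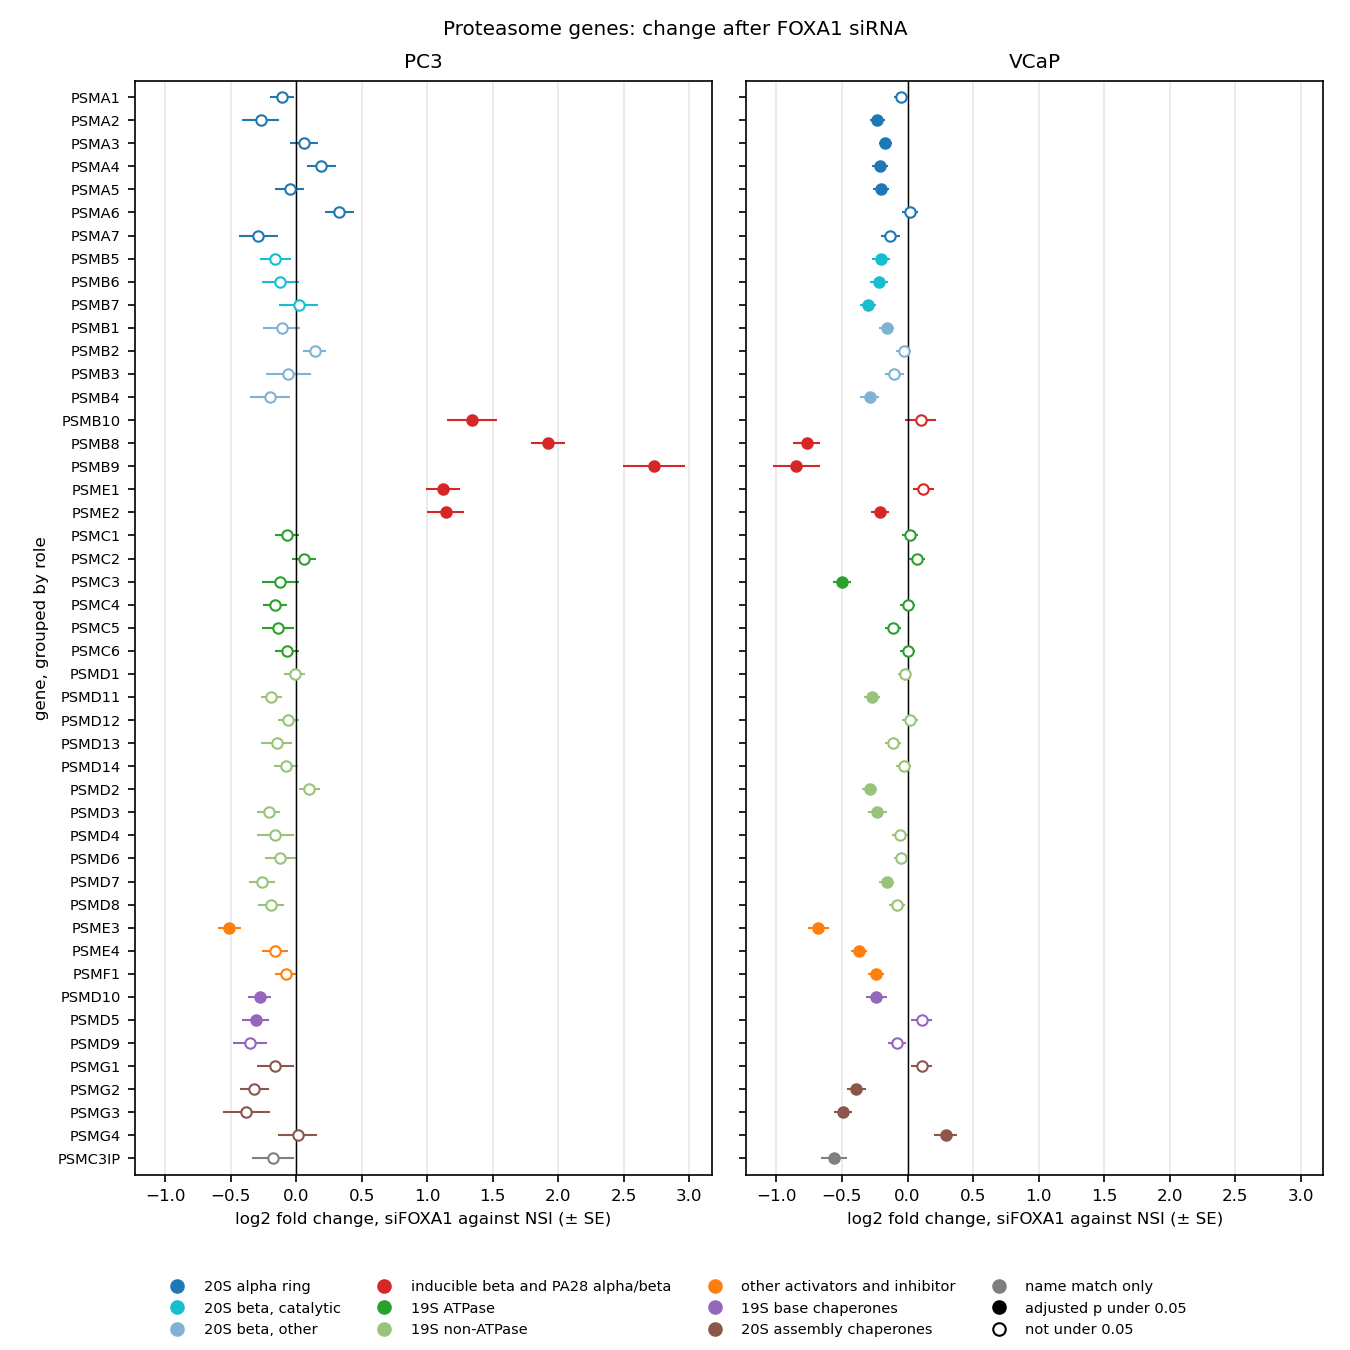
Log2 fold change of siFOXA1 against NSI for the 47 tested members, PC3 at left and VCaP at right on the same scale, ordered and coloured by role. Points are edgeR estimates, bars the SE and filled points an adjusted p under 0.05. In PC3 the 5 inducible genes lie between 1.12 and 2.73 and all other members between -0.51 and 0.33, while in VCaP all members lie between -0.85 and 0.29.

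The standard subunits of PC3 stayed within a narrow range. The 31 genes ran from -0.29 for PSMA7 to 0.33 for PSMA6, both of the alpha ring, with a median of -0.11. The median of all 26376 genes was -0.01. Among the 10718 genes whose mean CPM lay in the members' range it was -0.1, close to that of the standard subunits. Over the 42 tested members outside the inducible genes the median was -0.13, and it was 0.003 without NSI replicate 2 and -0.206 without siFOXA1 replicate 2. Of the 31 standard subunits, edgeR called 0. At an unadjusted p under 0.05, 1 was higher and 3 lower (PSMA6, and PSMD3, PSMD7 and PSMD11). DESeq2 called 1 of the 31 higher and 0 lower. PSMB5 read 136, 176 and 140.2 CPM in NSI and 125, 148 and 132 in siFOXA1. PSMB6 read 84.6, 115 and 88.5 against 86, 99.7 and 79.7, and PSMB7 163, 215 and 192 against 165, 233 and 180. The groups of each of the 3 overlapped, with log2 fold changes of -0.16 (SE 0.12), -0.12 (SE 0.14) and 0.02 (SE 0.15).

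Of the activators and chaperones in PC3, PSME3 was the clearest to fall. It read 180.2, 154 and 178 CPM in NSI and 118, 117 and 125 in siFOXA1, without overlap, for a log2 fold change of -0.51 (SE 0.09, edgeR adjusted p = 0.00449), and was called in all 17 alternatives. PSME4, the PA200 cap, and PSMF1, an inhibitor of the core, were at -0.16 and -0.08 and not called. The 3 chaperones that seat the ATPase ring lay together between -0.35 and -0.28. PSMD10 read 61.2, 67.6 and 65.2 CPM against 50.5, 56.4 and 52.7 (log2 fold change -0.28, SE 0.09, edgeR adjusted p = 0.0388). PSMD5 read 52.9, 44.6 and 50.9 against 41.3, 37.1 and 41.7 (-0.31, SE 0.1, edgeR adjusted p = 0.0456). PSMD9, at -0.35, was not called (edgeR adjusted p = 0.0739). PSMD10 kept its call in 7 of 17 alternatives and PSMD5 in 6, and only PSME3 was left among the lower members without NSI replicate 1 or 3 or siFOXA1 replicate 1 or 3. Without siFOXA1 replicate 2, 6 members were lower. The 20S assembly chaperones PSMG1 to PSMG4 ran from -0.38 for PSMG3 to 0.01 for PSMG4, with 0 of 4 called.

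**Figure D3:**
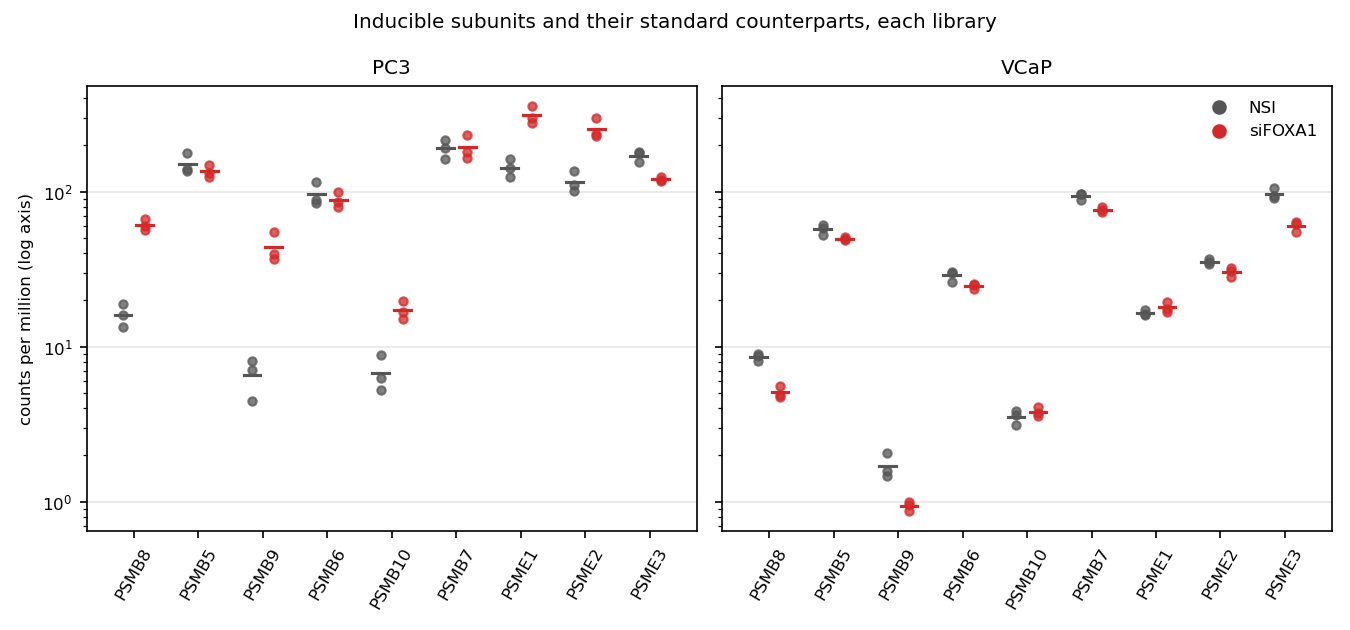
CPM on a log axis in each library for the inducible genes, the catalytic subunits they replace and PSME3, with NSI in grey, siFOXA1 in red and group means as lines. In PC3 the 5 inducible genes are separated without overlap, and the NSI and siFOXA1 points of PSMB5, PSMB6 and PSMB7 overlap. In VCaP PSMB8, PSMB9 and PSME3 are lower with siFOXA1.

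The PC3 libraries with replicate number 2 stood above the others for most members. In NSI, replicate 2 was the highest of the 3 libraries for 29 of the 31 standard subunits, and in siFOXA1 for 27 of 31. The median departure of these subunits from the NSI mean was 0.16 (log2 CPM) in NSI replicate 2 and -0.13 in NSI replicate 1. In siFOXA1 it was 0.01 in replicate 2, -0.15 in replicate 1 and -0.16 in replicate 3. For the inducible genes the siFOXA1 libraries stood 1.33, 1.57 and 1.19 above the NSI mean, against -0.25 to 0.25 among the NSI libraries. With the replicate number as a block, edgeR called 7 members higher, adding PSMA6 (0.33, edgeR adjusted p = 0.00833) and PSMA4 (0.2, edgeR adjusted p = 0.0287), and 13 lower. The 10 added on the lower side were PSMA2, PSMA7, PSMB4, PSMD3, PSMD7, PSMD8, PSMD9, PSMD11, PSMG2 and PSMG3. The block also raised the share of all genes called to 42.9%, and the 20 members called are 42.6% of the 47. Without both replicate 2 libraries, 9 members were higher and 9 lower, 38.3% of the 47 where 38.2% of all genes were called, with PSMB8 at 2.01, PSMB9 at 2.75, PSMB10 at 1.5, PSME1 at 1.15 and PSME2 at 1.17.

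**Figure D4:**
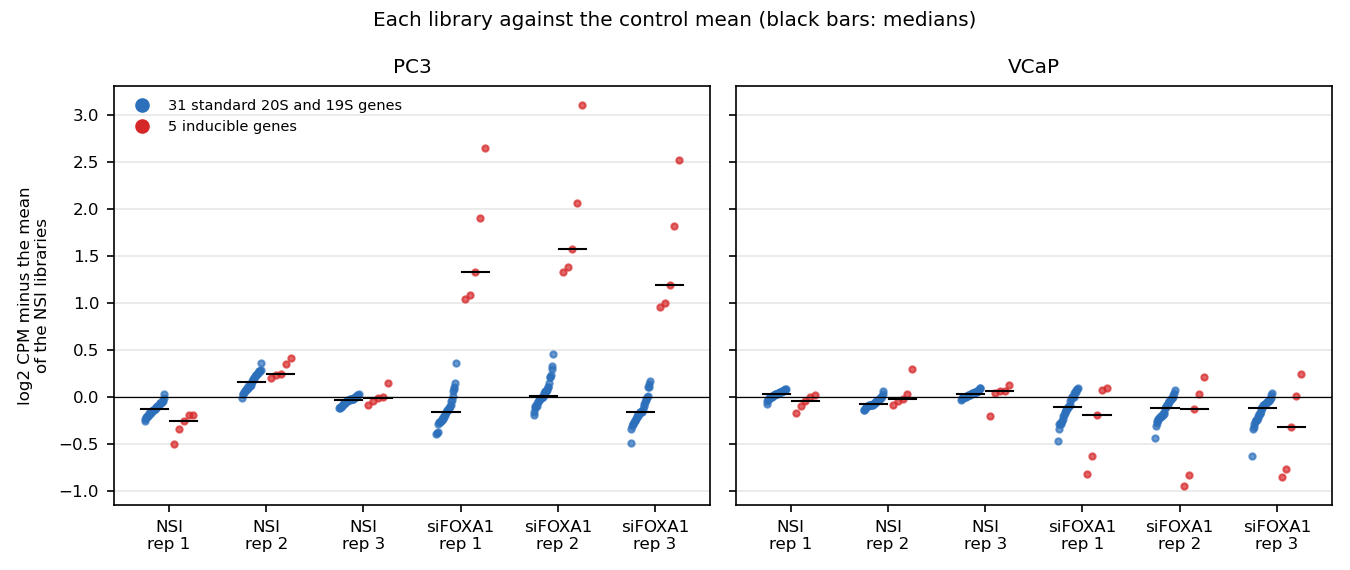
Log2 CPM of each member in each library minus the gene's mean over the 3 NSI libraries, for the 31 tested standard subunits (blue) and the 5 inducible genes (red), with medians as black bars. In PC3 the blue medians stay between -0.16 and 0.16 while the red medians of the siFOXA1 libraries are 1.19 to 1.57. In VCaP the blue medians of the siFOXA1 libraries are -0.11 to -0.12.

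In VCaP the inducible genes did not rise, and much of the family was slightly lower. PSMB8 and PSMB9 fell, PSME2 fell a little, and PSMB10 and PSME1 were not called. Across the family 24 of the 47 tested members fell and 1 rose. The background here was high: 45.8% of the 22925 genes were called, 22.5% higher and 23.3% lower. Among the 14863 genes whose mean CPM lay in the members' range, 53.5% were called (24.5% higher and 29% lower), and the median was -0.01. Of the 47 members 53.2% were called, with a median of -0.16. The 2 groups did not overlap for 29 of the 47, and the share of all genes without overlap was not counted.

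PSMB8 read 8.74, 8.11 and 8.96 CPM in VCaP NSI and 5.58, 4.85 and 4.76 in siFOXA1. The groups were apart, with a log2 fold change of -0.77 (SE 0.1, edgeR adjusted p = 0.000207). PSMB9 read 1.58, 2.07 and 1.46 CPM against 0.953, 0.875 and 0.99, which rests on 82 to 104 counts in the controls and 44 to 52 with siFOXA1. It too did not overlap between groups, at -0.85 (SE 0.18, edgeR adjusted p = 0.0036), and both genes were called in all 16 alternatives. PSME2 read 35.3, 34.3 and 36.5 CPM against 30.9, 32.3 and 28.3 (-0.21, SE 0.07, edgeR adjusted p = 0.0241, called in 9 of 16). PSME1, at 16, 16.2 and 17.2 against 17.6, 16.8 and 19.5, overlapped between groups (0.12, SE 0.08, edgeR adjusted p = 0.214). PSMB10, at 3.14, 3.61 and 3.86 against 3.71, 4.08 and 3.56, overlapped as well (0.1, SE 0.12, edgeR adjusted p = 0.542). For both, the SE leaves room for a small change.

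The standard catalytic subunits of VCaP all fell by a small amount. PSMB7 read 96.8, 88.3 and 96.1 CPM in NSI and 74.1, 75.7 and 79.1 in siFOXA1 (-0.3, SE 0.06, edgeR adjusted p = 0.00356). PSMB6 read 30.4, 26.1 and 29.8 against 23.6, 25.3 and 25 (-0.22, SE 0.07, edgeR adjusted p = 0.032). PSMB5 read 58.3, 52.1 and 61 against 48.5, 49.5 and 50.7 (-0.2, SE 0.07, edgeR adjusted p = 0.0332). None of the 3 overlapped between groups, which was so for 29 of the 47 members here. For PSMB6 and PSMB5 the gap was narrow and the call was kept in 9 of 16 alternatives. In VCaP 23.3% of all genes fell, and 29% of those in the members' CPM range. Of the 14 tested standard 20S subunits 9 fell (64.3%), including PSMA2, PSMA3, PSMA4, PSMA5, PSMB1 and PSMB4. Of these PSMA3 kept its call in 9 of 16 alternatives and PSMB1 in 2. Of the 17 of the 19S cap 5 fell (29.4%), near the share of genes in that range. PSMC3, an ATPase of the base, was the largest of these: 53.6, 47.9 and 51 CPM in NSI against 36.8, 37.6 and 33 in siFOXA1 (-0.5, SE 0.07, edgeR adjusted p = 0.000305). The other 5 ATPases lay between -0.11 and 0.07 and were not called, so the ATPase genes did not move as 1 group. Among the non-ATPase subunits PSMD2, PSMD3, PSMD7 and PSMD11 fell, by 0.16 to 0.29 on the log2 scale, and PSMD7 kept its call in 3 of 16 alternatives.

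The activators PSME3 and PSME4 and the inhibitor PSMF1 fell in VCaP. PSME3 read 94.2, 91.3 and 105 CPM in NSI and 64.1, 61.9 and 55.1 in siFOXA1 (-0.68, SE 0.08, edgeR adjusted p = 0.000102), the lowest p of the family in this line. PSME4 read 121, 129.9 and 118 against 94.1, 92.8 and 98.2 (-0.37, SE 0.06, edgeR adjusted p = 0.001), and PSMF1 fell by 0.24. Among the 20S assembly chaperones, PSMG3 read 16.3, 16.9 and 18.3 against 12.4, 12.3 and 12.1 (-0.49, SE 0.07, edgeR adjusted p = 0.000509) and PSMG2 fell by 0.39. PSMG4, the partner of PSMG3, was the only member to rise, from 9.24, 9.82 and 10.5 CPM to 11.2, 11.9 and 13.1 (0.29, SE 0.09, edgeR adjusted p = 0.025, called in 10 of 16 alternatives). PSMC3IP, the name match outside the proteasome, read 5.68, 5.26 and 5.7 against 3.85, 3.78 and 3.69 (-0.56, SE 0.1, edgeR adjusted p = 0.00118). The number of members lower was 15 without siFOXA1 replicate 2, 10 when all 12 libraries entered 1 fit, which also changed the genes tested and the scaling, and 6 when a change of at least 0.3 (log2) was asked for. The share of all genes called, in either direction, was 37.1%, 28% and 25.9% in these settings. The mitochondrial share of counts moved with the groups, from 3.02 to 3.29% in VCaP NSI to 4.04 to 4.69% in siFOXA1. Its part in these small shifts was not tested.

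The balance between inducible and standard catalytic subunits was read within each library, where no scaling between libraries enters. The share is the inducible gene's counts per kilobase out of the sum of the pair. In PC3, PSMB8 made 8.51, 9.18 and 9.74% of its pair with PSMB5 in NSI and 31, 29.9 and 28.8% in siFOXA1. PSMB9 made 4.79, 6.29 and 7.02% of its pair with PSMB6 in NSI and 30.5, 34.2 and 30.2% in siFOXA1. PSMB10 made 2.51, 3.22 and 2.56% of its pair with PSMB7 in NSI and 7.52, 6.39 and 6.33% in siFOXA1. The log2 ratio rose by 2.09, 2.86 and 1.35 in turn, and in each pair all siFOXA1 libraries lay above all NSI libraries. PSMB10 thus held the smallest share of its pair before and after.

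In VCaP, PSMB8 made 12.4, 12.8 and 12.2% of its pair in NSI and 9.81, 8.47 and 8.14% in siFOXA1, a log2 difference of -0.57. PSMB9 made 4.68, 6.97 and 4.42% in NSI and 3.65, 3.15 and 3.62% in siFOXA1, a difference of -0.63. PSMB10 went the other way, from 2.55, 3.18 and 3.13% to 3.87, 4.15 and 3.49% (0.4), while its own level was not called and PSMB7 fell. The 6 pairs gave a two-sided exact permutation p of 0.1 each (Benjamini-Hochberg 0.1), the smallest that 20 arrangements of 3 against 3 libraries allow, so none could pass the threshold. In control cells PSMB8 held a smaller share in PC3 (9.14% ± 0.619, SD, n = 3) than in VCaP (12.5% ± 0.323), without overlap. The control shares of PSMB9, 6.03% and 5.36%, and of PSMB10, 2.76% and 2.95%, overlapped between PC3 and VCaP.

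**Figure D5:**
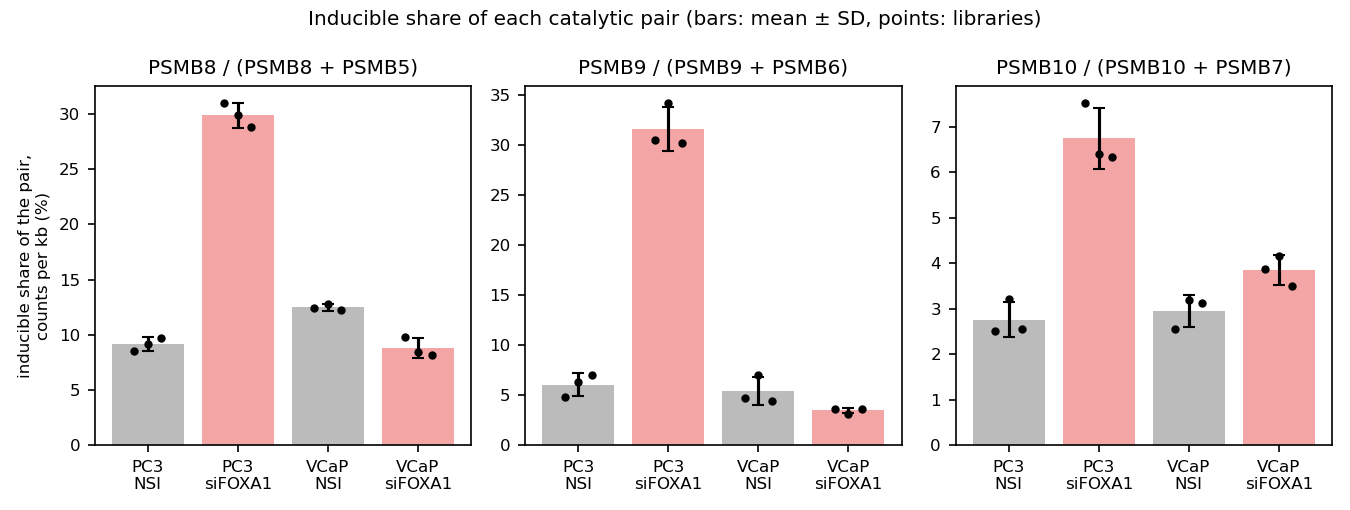
Share of the inducible gene in each catalytic pair, in percent of the pair's counts per kilobase, by line and siRNA. Bars are means with SD, points the 3 libraries, and each panel has its own vertical axis from 0. The PC3 siFOXA1 bars stand at 29.9, 31.6 and 6.75%, above 9.14, 6.03 and 2.76% in PC3 NSI.

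The response differed between the lines for 8 of the 47 tested members by a test of the difference itself, 7 more negative in VCaP and 1 more positive. In this test 22.3% of 30322 genes were called, 11% more negative and 11.3% more positive. All 5 inducible genes were among the 7. The log2 fold change in VCaP minus that in PC3 was -3.59 for PSMB9 (SE 0.33, edgeR adjusted p = 1.48e-06) and -2.7 for PSMB8 (SE 0.17, edgeR adjusted p = 4.13e-08). It was -1.36 for PSME2 (edgeR adjusted p = 2.48e-05), -1.25 for PSMB10 (edgeR adjusted p = 0.00144) and -1 for PSME1 (edgeR adjusted p = 0.00029). These 5 were called in all 21 alternatives.

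The other 3 differences were small. PSMD2, a scaffold subunit of the 19S base, read 273, 286 and 264 CPM in PC3 NSI and 292, 289 and 303 in PC3 siFOXA1, but 191, 169.9 and 182 against 148, 149.8 and 148 in VCaP (difference -0.4, SE 0.11, edgeR adjusted p = 0.0161). PSMA4, of the alpha ring, read 89.3, 113 and 94.6 against 109, 124 and 106 in PC3, and 154, 153 and 154 against 139.6, 129 and 130.2 in VCaP (-0.41, SE 0.13, edgeR adjusted p = 0.0356). It lost this call in 6 of 21 alternatives. These were a minimum log2 change of 0.3 and leaving out VCaP NSI replicate 1, 2 or 3 or siFOXA1 replicate 2 or 3. PSMD2 lost its own call with that minimum change and without VCaP NSI replicate 1. PSMD5 differed by 0.4 (SE 0.13, edgeR adjusted p = 0.0415) and kept this call in 5 of 21 alternatives, 2 of the 12 that left out 1 library among them. For PSME3, lower in both lines, the difference was -0.18 (SE 0.13) and was not called. With replicate blocks 10 members were more negative in VCaP, adding PSMA6, PSMB7 and PSMC3, and without PC3 NSI replicate 2 there were 12. The share of all genes called was 29.1% and 24.9% in these settings. The line, its kit and its siRNA dose cannot be told apart in these differences.

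Genes that work with the proteasome but carry other names were read from a list of 23 assembly factors, shuttles, deubiquitinases, ubiquitin genes and regulators. In PC3 4 fell and 19 were not called, so that 17.4% were called against 27.8% of all genes. In VCaP 8 fell and 15 were not called, 34.8% against 45.8% of all genes. Their medians were -0.2 and -0.08, beside -0.01 and 0.02 over all genes tested. POMP, the chaperone that matures the 20S core, read 36.5, 48.2 and 41 CPM against 38.7, 42.5 and 35.2 in PC3, and 26.9, 27.1 and 28.1 against 27.1, 27.5 and 24.5 in VCaP. Its groups overlapped in both lines. NFE2L1, the factor known to induce proteasome genes when the proteasome is inhibited, read 503, 404 and 533 CPM against 588, 511 and 571 in PC3 (0.21, SE 0.12, edgeR adjusted p = 0.209, or 0.0249 with replicate blocks). In VCaP it read 173, 163 and 179 against 145, 145 and 158 and fell (-0.2, SE 0.07, edgeR adjusted p = 0.0336).

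Of 11 genes of class I peptide loading and its regulators, 10 rose in PC3, with a median of 1.29, where 13.9% of all genes rose. In VCaP 3 rose and 4 fell, with a median of -0.01, where 22.5% of all genes rose and 23.3% fell. All of these lists were drawn up with earlier results known. TAP1, the neighbour of PSMB9, read 29.1, 31.9 and 35.8 CPM in PC3 NSI and 164, 171 and 171 in siFOXA1 (2.39, SE 0.1, edgeR adjusted p = 2.5e-06). In VCaP it read 18.6, 15.8 and 18.9 against 11.1, 11.4 and 10.4 (-0.7, SE 0.09, edgeR adjusted p = 0.000171). Its direction in each line was that of PSMB8 and PSMB9. The difference between the lines was -3.1 (edgeR adjusted p = 1.41e-09). IRF1 and NLRC5, which are known regulators of these genes, rose by 2.42 and 2.58 in PC3. In VCaP IRF1 fell by 0.44, and NLRC5, at 0.27, was not called.

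Some members share exon bases with other genes, and the deposited counts divided a read among the genes it overlapped. A long non-coding RNA, named XXbac-BPG246D15.8 in the annotation, overlaps 8.65% of the exon bases of PSMB8 on the other strand and 15.1% of those of PSMB9 on the same strand. It read 3.32, 4.92 and 4.15 CPM in PC3 NSI and 18.5, 20.8 and 20.85 in siFOXA1, and at most 0.27 in VCaP. In PC3, where strand was ignored, reads of the RNA and of the 2 genes cannot be told apart in those bases, and its part in their rise was not tested. PSMB10 shared 30.7% with another gene on its own strand, whose part in the PC3 rise of PSMB10 was not tested. PSME1 and PSME2 shared at most 1.41%. Overlap on the other strand leaves some members uncertain in PC3, where strand was ignored. The largest such overlaps are in PSMC1, with 82.1% of its exon bases under NRDE2, PSMC3IP, with 49.9% under MLX, and PSMD7, with 42.4%. PSMC5 (16.2%), PSMG2 (14.7%) and PSMD13 (10.4%) come next. Overlap on their own strand leaves PSMA6 (63.9%), PSMA2 (52.5%), PSMA1 (35.7%), PSMB10 (30.7%) and PSMD9 (29.7%) uncertain in both lines.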

How the data were processed

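RNA was sequenced from PC3 and VCaP cells with NSI or siFOXA1, with 3 libraries a group, and the labels do not say whether these are separate cultures, so p-values measure the spread between these libraries. The authors deposited expected counts per gene, not normalized, with fractions where a read was shared: per the file headers featureCounts 2.0.0 counted read pairs over GENCODE v28lift37 exons on GRCh37, with multi-mapped and overlapping reads divided. STAR 2.7.3a and Subread 2.0.0 are named in the submitters' processing notes. Counts were rounded. Each line was fitted on all genes with edgeR 4.0.16 in R 4.3.3 (TMM, filterByExpr, quasi-likelihood test, two-sided, Benjamini-Hochberg over all genes tested, threshold 0.05), the difference between lines on all 12 libraries. SE is the log2 fold change divided by the square root of F. CPM used TMM library sizes, TPM the exon length in the file. Pairs were tested with an exact permutation test over all arrangements of the libraries, with the Benjamini-Hochberg adjustment from scipy 1.17.1. The fits were tested on simulated data. Alternatives were DESeq2 1.42.0, other scalings and filters, a minimum change, replicate blocks and leaving out libraries.

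Same-numbered PC3 libraries deviated together from their group means (correlations 0.45, 0.59 and 0.25 over 16613 genes), so their numbers can be read as pairs from the data. The pairing entered only the alternative setting with replicate blocks. The reported p-values and calls, and the permutation test of the pair ratios, did not use it. The members and gene lists were chosen with earlier results of these data known. By a fixed rule, values in every library are given for the inducible genes, PSMB5, PSMB6, PSMB7, PSME3, FOXA1, POMP, NFE2L1 and TAP1, and, among other members called, for the 4 with the smallest adjusted p in each direction and line and the 3 in each direction for the difference between lines. PSMC3IP and members under the filter are also given. Other members and list genes named were chosen after their values were seen. Values of some genes on the marker and pathway lists are not reported here.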

Additional observations from a re-analysis of the deposited data

Results flagged for a closer look

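The change with siFOXA1 differed between the lines by the test of the difference for 8 members and for FOXA1 and TAP1, given as the log2 fold change in VCaP minus that in PC3. The inducible genes differed by -2.7 (PSMB8), -3.59 (PSMB9), -1.25 (PSMB10), -1 (PSME1) and -1.36 (PSME2), and TAP1 by -3.1. FOXA1 itself differed by -1.93, since the knockdown left 62.4% of the control level in PC3 and 16.5% in VCaP. PSMD2 differed by -0.4, PSMA4 by -0.41 and PSMD5 by 0.4. The groups of 3 libraries are too small for a test of single libraries that stand apart.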

How the results depend on the processing

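No member that was called changed direction under any alternative run. Some members that were not called did change sign, such as PSMB7 in PC3, which ran from -0.14 to 0.16. In PC3 the number of members higher, 5, was 9 without replicate 2 of both groups, a setting chosen after seeing the data, 7 with the replicate block and 5 to 7 when 1 library was left out. The number lower, 3, was 1 with upper-quartile factors, with library size alone, with a minimum log2 change of 0.3 and with the filter applied on raw library sizes (chosen after seeing the data), 5 with all 12 libraries in one fit, 13 with the replicate block, 9 without replicate 2 of both groups, and 1 to 6 when 1 library was left out. In VCaP the 1 member higher was 0 with the minimum change and with all 12 libraries, and 0 to 1 when 1 library was left out. The 24 lower were 6, 10 and 15 to 21 in the same settings. Same-numbered VCaP libraries correlated at 0.11, 0.035 and 0.39, against means of -0.02, 0.0085 and -0.24 for other numbers. Whether they are pairs is therefore unclear, and the VCaP block gave 22 lower. For the difference between lines, the 1 member more positive was 0 with DESeq2 size factors, upper-quartile factors, library size alone, DESeq2, no filter and the minimum change, and 0 to 1 when 1 library was left out. The 7 more negative were 10 with the replicate block and 5 to 12 when 1 library was left out. The log2 pair ratios kept their direction throughout, in the replicate block too. The cause of these shifts was not tested. Counts of 44 to 104 limit PSMB9 in VCaP.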
